A study of Mus musculus with 8 samples.

Results

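The galectins are lectins that bind galactose-containing glycans, and 5 genes of this family (Lgals1, Lgals3, Lgals4, Lgals8 and Lgals9) were examined among the 55414 genes listed for mouse dorsal root ganglia (DRG) at E18.5. All 5 had an Ensembl ID in the counts and all 5 passed the expression filter, which kept 17721 genes. The family was selected on the measured fold change of Lgals3 in these same libraries, which was 3.89-fold lower in one genotype, and on the abundance of Lgals1. The genotype differences of the 5 members are therefore given as a description, with their errors and without p-values.

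Bulk RNA-seq had been made from 4 AD1 OE and 4 Control libraries. AD1 OE embryos had the genotype AdvillinCre/+;Rosa26Dach1/+, in which Cre, made from the Advillin gene of somatosensory neurons, removes a stop cassette in front of a Dach1 copy at Rosa26. Control embryos had the genotype Advillin+/+;Rosa26Dach1/+ and thus carried the same unrecombined Rosa26 allele without Cre. The Rosa26Dach1 line was of mixed C57Bl/6J and CD1 background, the stated cell content was neurons and glia, and the labels do not say whether ganglia of several embryos were pooled. Dach1 encodes a transcription factor that sensory neurons first make broadly and most of them later lose. By the description of the line it is first lost in AD1 OE as in Control and then made again broadly by E18.5. The comparison asked how transcripts differ with this late return. The AD1 OE embryos alone also carried Cre in the Advillin gene and could make EGFP from the recombined Rosa26 allele. The share of these in any difference cannot be told apart from that of Dach1.

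Galectins are made without a signal peptide and act both inside the cell and, after an unconventional route of secretion, on glycoproteins and glycolipids of the cell surface and matrix. They fall into prototype members with a lone carbohydrate-recognition domain (galectin-1, from Lgals1), the chimera galectin-3 (Lgals3), whose domain is joined to a proline- and glycine-rich tail, and tandem-repeat members in which a linker joins a pair of domains (galectin-4, galectin-8 and galectin-9). In the DRG, galectin-1 and galectin-3 are known as lectins of small-diameter sensory neurons whose axons end in the superficial dorsal horn, and galectin-3 is also widely used as a marker of activated macrophages.

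The libraries held between 22339059 and 44025625 counts. Values are given as CPM, counts divided by a library size that was scaled by TMM, a method that corrects for differences in library composition. A gene was called at a Benjamini-Hochberg adjusted p under 0.005 in the edgeR quasi-likelihood test together with an absolute log2 fold change over 0.25, and 2.57% of the tested genes were called. The targeted gene followed the labels, since Dach1 was at 91.5 to 102 CPM in AD1 OE and at 30.2 to 33.7 CPM in Control. Avil, whose locus carries Cre, ranged from 450 to 478 CPM in AD1 OE and from 840.4 to 919 CPM in Control. By Xist and Y-linked transcripts, 3 AD1 OE libraries and 1 Control library were male and the others female, so sex and genotype were partly mixed. The 9 pan-neuronal markers and the 9 markers of Schwann and satellite glia all passed the filter, with none of them called.

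Lgals3 (ENSMUSG00000050335, chromosome 14) was the member that set AD1 OE apart from Control. It was at 5.38, 5.70, 6.69 and 5.68 CPM in AD1 OE replicates 1 to 4. In Control replicates 1 to 4 it was at 22.0, 25.3, 21.5 and 22.1 CPM. The highest AD1 OE library thus lay far below the lowest Control library, and each group was tight around its mean. AD1 OE averaged 5.87 ± 0.572 CPM against 22.7 ± 1.71 CPM for Control (mean ± SD, n = 4 each), which is 25.8% of Control. The fitted log2 fold change was -1.96 (SE 0.08), with a 95% interval from -2.14 to -1.78. These values rested on 128 to 238 counts per library in AD1 OE and 489 to 811 in Control. Over the alternative fits of the same libraries its log2 fold change ran from -2.02 to -1.89.

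**Figure D1:**
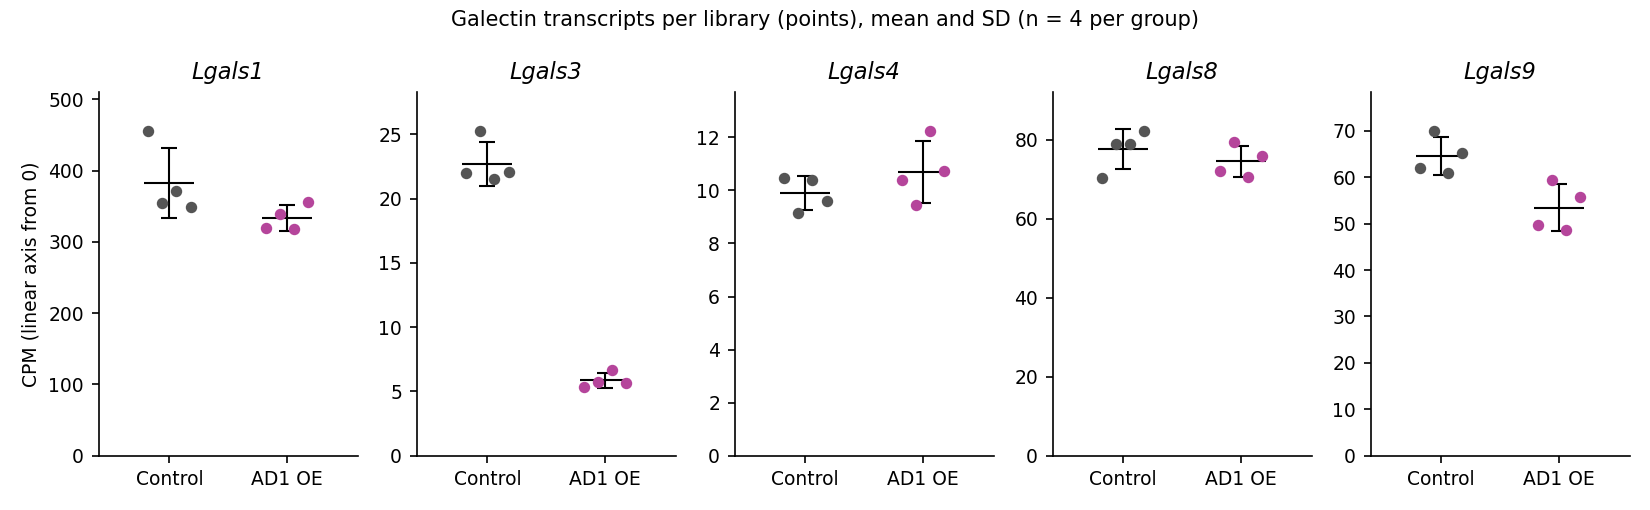
CPM of the 5 galectin genes in each library (points) with the mean and SD per group (n = 4); each panel has its own linear axis starting at 0. Lgals3 lay at 5.38 to 6.69 CPM in AD1 OE and 21.5 to 25.3 CPM in Control, whereas Lgals1, Lgals4 and Lgals8 overlapped between the groups.

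Among the tandem-repeat galectins, Lgals9 (ENSMUSG00000001123, chromosome 11), which encodes a ligand of the immune receptor Tim-3, was lower in AD1 OE in every library without being called. It was at 49.7, 59.4, 48.7 and 55.7 CPM in AD1 OE, against 62.0, 70.0, 61.0 and 65.2 CPM in Control, replicates 1 to 4. The lowest Control library lay just above the highest AD1 OE library. The fitted log2 fold change was -0.28 (SE 0.07), with a 95% interval from -0.43 to -0.13, past the limit on the fold change but not past the limit on the adjusted p. Lgals9 was called under DESeq2 as run here, and DESeq2 is the tool that the study used. It was also called without the expression filter, and when the adjusted p alone was used at 0.05, a limit that 6.55% of all tested genes met. The 2 members whose groups did not overlap, Lgals3 and Lgals9, stand beside a background of 13.0% of all tested genes without overlap (7.26% lower and 5.69% higher in AD1 OE), from which nothing is read.

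Lgals8 (ENSMUSG00000057554, chromosome 13), whose product marks damaged vesicles for autophagy, was at 72.0, 79.4, 70.6 and 76.0 CPM in AD1 OE. Control replicates 1 to 4 had 70.4, 78.8, 78.9 and 82.2 CPM. The groups overlapped over most of their range, and the log2 fold change was -0.06 with a 95% interval from -0.18 to 0.06. Lgals8 shares exonic sequence with Heatr1 on the opposite strand in the annotation, and since the strand setting of the counting is not given, part of its count is uncertain.

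Lgals4 (ENSMUSG00000053964, chromosome 7), best known from the epithelium of the digestive tract, was at 10.4, 9.45, 12.2 and 10.7 CPM in AD1 OE, against 10.5, 9.16, 10.4 and 9.60 CPM in Control. It was the lone member with a positive log2 fold change, 0.12 with a 95% interval from -0.07 to 0.30, and its groups overlapped. Markers of gut epithelium were almost absent from the same libraries, with all 5 (Vil1, Cdx2, Epcam, Krt20 and Fabp1) under 1 CPM on average. Some mouse strains carry Lgals6, a close copy of Lgals4, which had no ID in the tables used here, so reads of such a copy could have been counted as Lgals4 or lost.

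Lgals1 (ENSMUSG00000068220, chromosome 15) was by far the most abundant galectin transcript. It was at 319, 338, 319 and 356 CPM in AD1 OE replicates 1 to 4. Control replicates 1 to 4 were at 456, 354, 371 and 349 CPM, so that Control replicate 1 stood above the other 7 libraries while the rest overlapped. The fitted log2 fold change was -0.20 (SE 0.08), with a 95% interval from -0.37 to -0.03, and Lgals1 was not called. Without Control replicate 1 it was -0.10. The processed pseudogene Lgals1-ps1 took at most 1 count in any library and Lgals1-ps2 took 0.

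Of the 5 members, 1 was called (Lgals3, lower) and 4 were not, beside 2.57% of all tested genes called; because the rule chose the family on this contrast, nothing is read from that share. The median log2 fold change of the members was -0.20, beside 0.002 for all tested genes.

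Levels were compared between members as CPM per kb of merged exons. In Control the order was Lgals1 at 423 ± 55.0, Lgals9 at 30.2 ± 1.89, Lgals8 between 19.1 and 22.3, Lgals3 at 12.2 ± 0.922 and Lgals4 at 4.28 ± 0.274 CPM per kb (n = 4). No neighbours in that order overlapped between libraries, the closest being Lgals9, with a lowest Control value of 28.5, and Lgals8, with a highest of 22.3. In AD1 OE the last places were exchanged. Lgals3 was at 3.16 ± 0.308 CPM per kb, below Lgals4 at 4.62 ± 0.501, and Lgals3 lay under Lgals4 in 4 of 4 AD1 OE libraries and above it in 4 of 4 Control libraries. Of the summed CPM per kb of the 5 members, Lgals1 made up 86.1 ± 1.87% in Control and 87.4 ± 0.411% in AD1 OE, and Lgals3 made up 2.51 ± 0.354% and 0.751 ± 0.0957%. The sum itself ranged from 455 to 569 CPM per kb in Control and from 403 to 449 in AD1 OE.

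**Figure D2:**
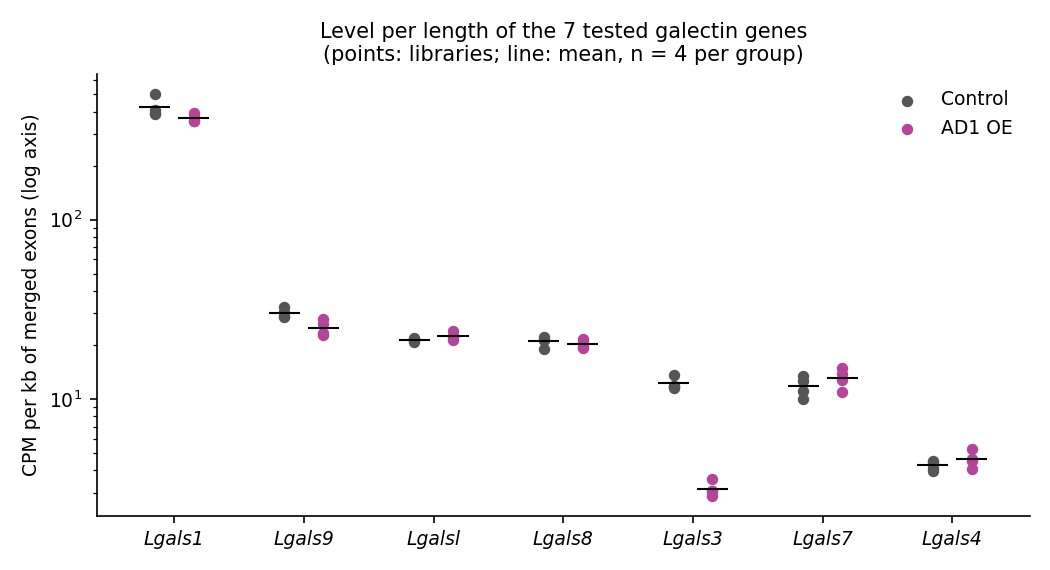
Level per length (CPM per kb of merged exons, log axis) of the 7 galectin and galectin-related genes that passed the filter, with libraries as points and group means as lines (n = 4). Lgals1 stood at 423 CPM per kb in Control, and Lgals3 moved from 12.2 CPM per kb in Control to 3.16 in AD1 OE, under Lgals4.

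The rest of the family was followed to complete the picture. Of 6 further galectin and galectin-related genes, 5 had an ID and 2 passed the filter, Lgals7 and Lgalsl, and neither was called (0 of 2, with 0 at an unadjusted p under 0.05 and 0 called by DESeq2 or limma-voom). Lgals7, known from stratified epithelia, averaged 12.2 ± 1.55 CPM for AD1 OE against 10.9 ± 1.42 CPM for Control (log2 fold change 0.16, edgeR adjusted p = 0.479). Lgalsl, which encodes a galectin-related protein, was at 92.8 ± 4.53 and 88.3 ± 1.88 CPM (log2 fold change 0.07, edgeR adjusted p = 0.391). Lgals2, Lgals12 and Grifin had at most 22 counts in any library and were not tested.

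The promoters of the 2 members whose groups did not overlap are shown for reference, as the 250 bases before the RefSeq start site (GRCm38.p6), 5′ to 3′ on the strand of the gene, with GC boxes (GGGCGG or its reverse complement CCGCCC) in capitals. The Lgals3 window is chr14:47373610-47373859 on the plus strand and the Lgals9 window is chr11:78984925-78985174 on the minus strand.
Lgals3: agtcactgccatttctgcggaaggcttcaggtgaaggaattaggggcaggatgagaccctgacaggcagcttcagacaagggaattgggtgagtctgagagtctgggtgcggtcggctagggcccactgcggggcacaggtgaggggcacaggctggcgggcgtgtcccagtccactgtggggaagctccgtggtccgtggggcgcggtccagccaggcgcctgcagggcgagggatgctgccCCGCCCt
Lgals9: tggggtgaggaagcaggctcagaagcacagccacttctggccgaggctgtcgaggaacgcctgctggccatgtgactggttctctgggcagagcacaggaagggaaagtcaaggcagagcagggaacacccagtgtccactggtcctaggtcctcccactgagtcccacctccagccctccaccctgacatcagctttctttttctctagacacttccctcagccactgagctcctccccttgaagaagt
The Lgals3 window was 66.0% G and C with 13 CpG dinucleotides and 1 GC box, and the Lgals9 window was 58.4% G and C with 3 CpG dinucleotides and 0 GC boxes. Over 32851 windows of that length, 32.7% held a GC box and the median was 52.4% G and C. Neither window held the TATA box letters TATAAA on either strand, which 12.4% of windows held. Windows were matched for 4 of the 5 members.

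Because galectins bind N-acetyllactosamine, the genes that build this glycan were examined. The list held 23 genes, mainly for the branching of N-glycans, the extension of lactosamine chains and the supply of nucleotide sugars. Not every gene on it, B4galt5 and B4galt6 among them, acts on lactosamine alone. All 23 were tested and 0 were called, beside 2.57% of all tested genes. An unadjusted p under 0.05 was met by 5 (3 lower, 2 higher), and DESeq2 and limma-voom called 0. Over the 23 the median log2 fold change was -0.02 and the range was -0.19 to 0.17. The lowest was B4galt5 (-0.19, edgeR adjusted p = 0.0111). Its groups did not overlap, as in 7.26% of all tested genes, lower in AD1 OE. The most abundant were Man2a2, a trimming mannosidase (log2 fold change 0.10, edgeR adjusted p = 0.230), Mgat3, which adds the bisecting N-acetylglucosamine (-0.09, 0.296), and Gcnt2, which branches lactosamine chains (-0.07, 0.275). Mgat5, which makes the branch that galectin-3 binds well, had a log2 fold change of -0.13 (edgeR adjusted p = 0.157).

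Genes that cap or modify the galactose ends were read next. Of 16 listed, 15 were tested and 2 were called, both lower in AD1 OE (13.3% of those tested, beside 1.78% of all genes called lower), with a list median of -0.05 on the log2 scale. The larger decrease was that of St6gal2, which adds sialic acid to the galactose of lactosamine, a cap that hinders the binding of several galectins. St6gal2 was at 34.8, 36.8, 30.9 and 39.8 CPM in AD1 OE replicates 1 to 4 and at 74.5, 81.5, 71.8 and 83.2 CPM in Control replicates 1 to 4. The groups were well apart (log2 fold change -1.13, SE 0.07, edgeR adjusted p = 3.54e-06), and AD1 OE averaged 45.7% of Control. St3gal1, a sialyltransferase mainly of O-glycans, fell less, from 64.7 ± 4.17 to 52.8 ± 1.35 CPM (log2 fold change -0.29, edgeR adjusted p = 0.00322). Its call was lost in 7 of the 8 fits without 1 library, in all but the one without Control replicate 1, with the highest adjusted p at 0.0152, and with sex as a term (adjusted p 0.0117). The related St6gal1, among the most abundant of the list, averaged 61.7 ± 2.66 and 62.7 ± 2.72 CPM (log2 fold change -0.02, edgeR adjusted p = 0.849). St3gal2 had a log2 fold change of 0.07 (edgeR adjusted p = 0.554).

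Among 21 ligands and partners of galectins, 20 were tested and 2 were called, both higher in AD1 OE (10% of those tested, beside 0.784% of all genes called higher). Their list median was -0.01 on the log2 scale. Cd44, a hyaluronan receptor that binds several galectins, was at 319, 345, 320 and 339 CPM in AD1 OE, against 234, 250, 257 and 254 CPM in Control. The groups did not overlap, with a difference of 0.41 on the log2 scale (SE 0.04, edgeR adjusted p = 1.38e-04). Plxna4, a plexin that with Nrp1 forms a semaphorin receptor to which galectin-1 can bind, was at 397, 379, 367 and 370 CPM in AD1 OE, against 270.0, 316, 272 and 277 CPM in Control. It differed by 0.42 on the log2 scale (SE 0.06, edgeR adjusted p = 6.09e-04) and shares exonic sequence with the antisense gene Plxna4os3. Nrp1 itself had a log2 fold change of 0.07 (edgeR adjusted p = 0.343). The most abundant partners were L1cam, an adhesion molecule of axons (-0.03, 0.794), Fn1, or fibronectin (0.16, 0.404), and Lamc1, a laminin chain (0.13, 0.206). Lgals3bp, a secreted glycoprotein named for its binding of galectin-3, averaged 34.6 ± 5.04 CPM for AD1 OE against 38.3 ± 6.21 CPM for Control (log2 fold change -0.15, edgeR adjusted p = 0.556). Havcr2, which encodes Tim-3, was at 0.439 and 0.529 CPM, near the lower end of detection.

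**Figure D3:**
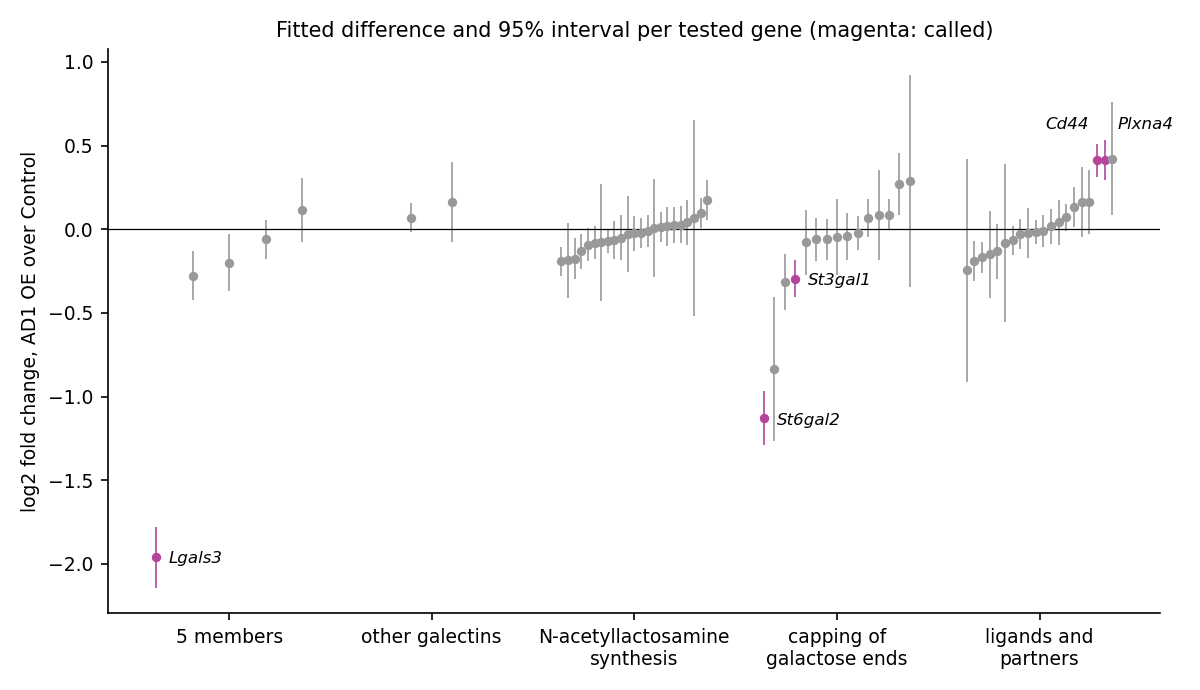
Fitted log2 fold change (AD1 OE over Control) with its 95% interval for each tested gene of the galectins and of 3 lists of glycan and partner genes, ordered within each list; called genes are in magenta and named. Lgals3 lay at -1.96 and St6gal2 at -1.13, Cd44 and Plxna4 lay at 0.41 and 0.42, and the 23 genes of lactosamine synthesis stayed between -0.19 and 0.17.

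Galectins are made by several cell types of the ganglion. In bulk tissue fewer cells of a type and less RNA per cell cannot be told apart, so marker lists were read beside Lgals3. From immunostaining at E18.5 the study reported appropriate numbers of neurons positive for Islet1, Prdm12 (a nociceptor marker), TrkB and TrkC in AD1 OE. Cell numbers were not measured in these libraries. Of 10 markers of non-peptidergic nociceptors, 5 fell and 1 rose past the call threshold (beside 1.78% of all tested genes called lower and 0.784% called higher), with a median log2 fold change of -0.48, and their summed level was 2768 to 3041 CPM in AD1 OE and 3236 to 3695 CPM in Control. Of 7 peptidergic markers, 3 were called lower and 1 higher against the same background, with a median of -0.39. The study had named some of these nociceptor genes from the same libraries, so their direction is not independent evidence. Scn10a, a sodium channel of nociceptors, stood at 56.3% of its Control level and Mrgprd, a receptor of non-peptidergic neurons, at 58.6%, against 25.8% for Lgals3. Lpar3, the lowest of the non-peptidergic list, stood at 35.7% of Control (called), at 2.73 against 7.64 CPM. Members of the same list also lay higher in AD1 OE, with Plxnc1, a plexin, at 147% of Control (called), and with the sodium channel Scn11a at 116% and the purinergic receptor P2rx3 at 112% (neither called). The summed list stood at 83.3% of Control. Scn10a held the largest part of that sum, at 781 of 2881 CPM in AD1 OE and 1387 of 3457 CPM in Control. The lower sum is therefore not a readout separate from Scn10a. Per 100 CPM of Scn10a, Lgals3 amounted to 0.755 ± 0.111 CPM for AD1 OE against 1.64 ± 0.0881 CPM for Control, 46.1% of Control. Per 100 CPM of the summed non-peptidergic markers Lgals3 was at 31.1% of Control. Scn10a was itself called lower in AD1 OE, so neither ratio is a level per nociceptor, and nothing about cell number is read from them.

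Macrophage markers were read in the same way. Of 12 markers 0 were called, beside 2.57% of all tested genes, a share too small for this count to show that they were unchanged. C1qb and C1qc had an unadjusted p under 0.05 (edgeR adjusted p 0.261 and 0.109). The median log2 fold change was -0.15, with a range from -0.23 (C1qc) to 0.05 (Cd68). The summed level ranged from 156 to 184 CPM in AD1 OE and from 173 to 193 CPM in Control. Csf1r, the receptor that sustains macrophages, was at 28.5 and 29.7 CPM, 96.0% of Control, whereas C1qa stood at 86.6% and Mrc1 at 101% of Control. Per 100 CPM of the macrophage sum, Lgals3 amounted to 3.51 ± 0.334 CPM for AD1 OE against 12.6 ± 0.947 CPM for Control. Sums of pan-neuronal markers (8200 to 8953 CPM in AD1 OE, 8627 to 8957 in Control), Schwann and satellite glia (1306 to 1628, 1329 to 1617) and endothelium (300.0 to 352, 313 to 321) overlapped between the groups, as did those of fibroblasts (6301 to 7069, 5427 to 6564), and none of these lists held a called gene. The part of these cell classes in the levels of Lgals1, Lgals8 and Lgals9 was not tested.

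**Figure D4:**
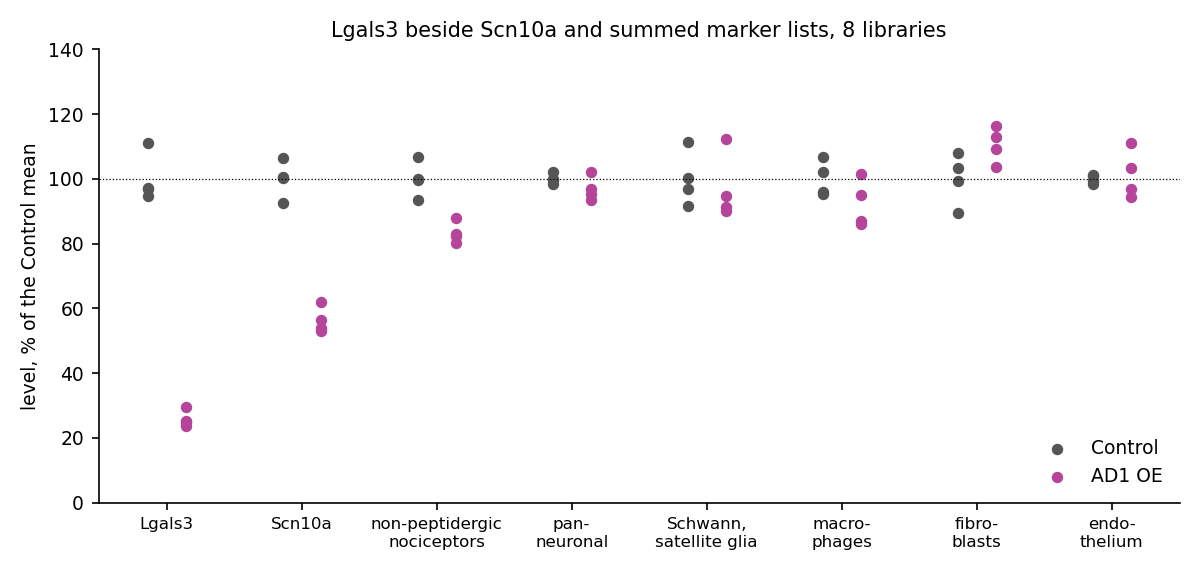
Lgals3, Scn10a and the summed CPM of 6 marker lists in each library, as a percent of the Control mean of each (n = 4 per group, linear axis from 0). Lgals3 averaged 25.8% and Scn10a 56.3% of Control in AD1 OE, while the non-peptidergic nociceptor, pan-neuronal, glial, macrophage, fibroblast and endothelial sums averaged 83.3, 96.9, 97.1, 92.4, 111 and 101%. The non-peptidergic sum includes Scn10a, its most abundant gene.

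Because sex was unevenly spread, Lgals3 was also read within each sex. In females the AD1 OE library was at 6.69 CPM and the 3 Control libraries at 21.5 to 25.3 CPM. In males the 3 AD1 OE libraries were at 5.38 to 5.70 CPM and the Control library at 22.1 CPM. The log2 ratio of the means was -1.78 in females and -1.98 in males, and no test within a sex was possible with 1 library on one side. The same ratio was -0.40 and -0.25 for Lgals9 and -0.30 and -0.05 for Lgals1, in females and males.

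The genes whose pattern over the 8 libraries was most like that of Lgals3 were taken by the root mean square distance of log2 CPM values, each centred on its own mean, among 13983 other genes. The nearest was Synpr, a synaptic vesicle protein (0.177 log2 units), followed by the pseudogene Mindy4b-ps (0.218), Mal2, a membrane traffic protein (0.221), the kinase Dclk3 (0.252) and Nell1, a secreted glycoprotein (0.255). Their log2 fold changes ran from -2.10 (Synpr) to -1.52 (Dclk3), and large decreases follow from choosing genes by likeness to Lgals3. For Lgals1 the nearest genes were Fabp7, a fatty acid binding protein of glia (0.0427), Rpl37a (0.0448), Mrpl13 (0.0484), Dynlt1f (0.0489) and Dctpp1 (0.0516), and none of these was called. Fabp7 had a log2 fold change of -0.26, beside -0.20 for Lgals1. Control replicate 1 was the highest library for both, at 328 CPM for Fabp7 and 456 CPM for Lgals1, and weighs on this likeness. These distances are a description over 8 libraries that share the genotype contrast.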

How the data were processed

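Per the labels and the study's methods, mRNA was sequenced with the Illumina Stranded mRNA Prep kit, aligned to GRCm39 with STAR 2.7.8a and counted per Ensembl gene with featureCounts 2.0.1, and the authors deposited raw counts, 1 file per library. The strand setting is not given in the sources used here. Gene names, chromosomes, exon lengths and shared exons came from GENCODE M21 on GRCm38, an older build, and no coordinates were taken from it. Promoter windows came from RefSeq on GRCm38.p6.

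Counts were analysed with edgeR 4.0.16 in R 4.3.3 (filterByExpr, TMM, genotype as the only term, adjustment over 17721 genes). DESeq2 1.42.0 and limma 3.58.1 (limma-voom), other scalings, filters, thresholds, a replicate block, a sex term and the omission of each library were alternatives. The edgeR, DESeq2 and limma-voom fits with genotype alone were tested on simulated data. Replicates differed by more than counting noise (chi-square per degree of freedom 4.15 to 11.4). The study counts embryos, but p-values measure only the spread between these libraries.

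The members and the gene lists were chosen with earlier results of these data known. Named were the 5 members, the other galectins, Dach1 and Avil, called genes and the 3 most abundant genes of each list, the nearest genes by pattern, and example markers; any other gene was chosen after its values were seen.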

Additional observations from a re-analysis of the deposited data

Results flagged for a closer look

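A library was singled out where its gap to the next of its group of 4, divided by the range of the group, exceeded Dixon's 95% critical value. Of 54 groups checked 5 did so, where chance flags about 1 in 20. Lgals3 in Control replicate 2 was at 25.26 CPM, above the other 3 Control libraries, and Plxna4 in the same library was at 316.4 CPM. The summed level of the lactosamine synthesis genes was also highest in Control replicate 2, at 1553 CPM. The erythroid marker sum was lowest in Control replicate 4, at 223.5 CPM. The spinal cord marker sum was highest among the AD1 OE libraries in replicate 3, at 8.721 CPM.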

How the results depend on the processing

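The direction of each of the 5 members was the same in all 19 alternatives. Those that changed only the thresholds reused the main fit and could not alter the direction. Called were 2 members (Lgals3 and Lgals9) under DESeq2, without the low-count filter, and at an adjusted p under 0.05 without a fold limit. At that last setting the lists of lactosamine synthesis and capping held 1 and 4 called genes. At an absolute log2 fold change over 1 the capping list held 1 and the partner list 0. The capping list held 1 called gene (St6gal2) with the replicate block and with sex as a term, and 1 to 2 in the fits without 1 library. The replicate numbers did not pair the samples (correlation of deviations between same-numbered libraries from -0.0634 to 0.327, with 1 of 4 AD1 OE libraries correlating best with its own number), and the block changed no call of a member. Over all genes 455 of 17721 were called, against 660 of 36426 under DESeq2 and 747 of 36426 without the filter. The other thresholds called 1161 and 129, and the fits without 1 library called 289 (without AD1 OE replicate 1) to 420. With the longest transcript as length, Control levels were 16.0 (Lgals3), 7.16 (Lgals4), 27.3 (Lgals8) and 40.7 (Lgals9) CPM per kb, in the same order. Lgals2, Lgals12 and Grifin did not pass the expression filter at these depths.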

Other observations

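A pair of further genes that modify galactose ends, Fut9 and B3gat2, were read after their values were seen. Their groups did not overlap, and edgeR did not call them at the thresholds used. DESeq2 called Fut9, as did edgeR without the low-count filter, and both genes passed an edgeR adjusted p of 0.05. Groups did not overlap in 4 of 15 tested capping genes and 4 of 20 tested partner genes, called ones included. Over all tested genes the share was 13.0%, and nothing is read from these counts. Fut9, the fucosyltransferase of the Lewis x epitope, averaged 1.93 ± 0.410 CPM for AD1 OE, 55.0% of Control (log2 fold change -0.83, edgeR adjusted p = 0.0256). It rested on 32 to 98 counts per library in AD1 OE and 79 to 131 in Control. B3gat2, which takes part in the HNK-1 epitope, was at 7.97 and 9.94 CPM (log2 fold change -0.32, edgeR adjusted p = 0.0281). Cntn1, an axonal adhesion protein named as a partner of galectin-4, was likewise lower in every AD1 OE library, at 473 against 532 CPM (log2 fold change -0.17, edgeR adjusted p = 0.0359). So was Cd47 of the partner list, narrowly, at 104 against 119 CPM (log2 fold change -0.19, edgeR adjusted p = 0.0656). Lgals7, a galectin of keratinocytes, was measured beside 5 keratinocyte markers. Of these, 3 were tested and 0 were called, beside 2.57% of all tested genes. Krt5 and Krt14 did not pass the filter and averaged under 1 CPM in both groups. Their highest values, 1.83 and 1.61 CPM, were in AD1 OE replicate 1. Krt10 averaged 6.02 and 5.77 CPM, Krt1 2.89 and 2.06 CPM, and Trp63 1.11 and 0.911 CPM, in AD1 OE and Control. The spinal cord marker list summed to 5.38 to 8.72 CPM in AD1 OE and 7.31 to 14.4 CPM in Control.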
